A study of Glycine max with 36 samples.

Results

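Soybean leaflets were compared 4 h and 2 h after a bentazon spray on 3 two-colour cDNA arrays, out of 36 arrays in the series. The 3 arrays were chosen by their titles and their channel labels, 1 for each of 3 replicates, with 2 h RNA in the Cy3 channel and 4 h RNA in the Cy5 channel. Probes measured on 2 or more of these arrays were kept, which left 17901 of 19200 probes, 16714 of them with 3 values and 1187 with 2.

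All plants in the series were of cultivar Williams 82, grown in a greenhouse at 25 °C with 16 h of daylight and about 2 weeks old, at the first trifoliate stage. The 3 leaflets of that leaf were pooled for each RNA. The bentazon groups were misted with the herbicide at 22 to 25 mM and harvested 4 h or 2 h later. Atrazine groups had a mist of the other herbicide, with the same dose range on the labels, and water groups had a spray of water with 1% adjuvant, each also harvested at 4 h and 2 h. The labels used here record adjuvant for the water spray and not for the herbicide sprays, so adjuvant and herbicide cannot be told apart in any comparison of bentazon with water. They call the replicates biological and do not say whether these came from separate sowings or days, so p-values measure the spread between these samples. In whole leaflets, fewer cells of a type and less RNA per cell cannot be told apart. The leaf markers on the array give only ratios, so the labelled tissue could not be checked by a level.

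Bentazon and atrazine both occupy the plastoquinone site of photosystem II and stop electron flow out of the reaction centre. Excitation that can no longer be used then feeds the formation of singlet oxygen and other reactive oxygen species in the chloroplast, and carbon fixation runs short of reducing power. Soybean tolerates bentazon because it hydroxylates the molecule with a cytochrome P450 and then joins it to glucose, so that photosynthesis recovers after a transient block. Ferritin, catalase and other antioxidant proteins, glutathione transferases, sugar-responsive genes and ethylene and jasmonate synthesis are among the systems known to respond to such stress in leaves.

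Each deposited value is a log ratio, taken here as log2, and the sources used here do not state which channel is the numerator. Signs are therefore given as deposited. A positive value means more signal from the 4 h RNA if Cy5 is the numerator, and more from the 2 h RNA if Cy3 is. Values of 1 sign lie on the same side of the comparison, and no transcript is said here to be more abundant at either time.

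The 3 arrays held 17872, 17731 and 17504 values for replicates 1, 2 and 3, with SDs over probes of 0.461, 0.581 and 0.559. Over probes, which are not independent, replicates 1 and 2 correlated at 0.499, replicates 1 and 3 at 0.432, and replicates 2 and 3 at 0.323. The median mean ratio of all probes was -0.02 and the median standard error 0.22, from a model with 24 residual and 7.76 prior degrees of freedom. The number of arrays limits the precision. The annotation used here gives exactly 1 gene to 1106 of the tested probes (6.18%), and 811 of those, for 376 genes, carry more than a placeholder name. Probes are cDNAs, so transcripts of related genes can bind to 1 spot, and different probes of a gene are reported separately.

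A total of 1115 probes were called between 4 h and 2 h of bentazon, 6.23% of those tested, at a limma adjusted p of 0.05. Of these, 471 were positive (2.63%) and 644 negative (3.6%). The called means ran between -2.67 and 3.08, with a median size of 0.88. Among the called probes with 3 values, 1101 of 1109 had the same sign on every array. The calls rest on these same arrays, so this agreement is partly built in. The larger differences lay more often on the positive side: 236 of the 393 called probes with a mean of at least 1 in size (2.2% of the probes tested) were positive (1.32%, and 157 negative, 0.877%), as were 21 of the 25 with a mean of at least 2.

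Every array of this kind carried the 2 h RNA in the same dye, so a probe's preference for a dye is part of its ratio. Over the closed loop of 12 kinds of array the RNA differences cancel and the mean estimates that preference, which had an SD over probes of 0.10. With this dye term subtracted, 1038 probes were called (5.83% of 17799). Of these, 847 were also called without the subtraction and with the same sign (369 positive and 478 negative), and 0 with the opposite sign. Both values hold the same direct mean, and the smallest called mean was 0.48 in size, so opposite signs were hardly possible. Of the 1038, 436 were positive (2.45%) and 602 negative (3.38%). The count fell most without replicate 1. In a separate fit with array weights, not used for this count, the replicate 1 array had 2.05, against 0.69 and 0.753 for replicates 2 and 3. Without replicate 1, 72 probes were called (70.8% positive), without replicate 2, 263 (61.2% positive), and without replicate 3, 676 (34.0% positive). These fits left the replicate out of all 12 kinds of array. So 2 bentazon arrays remained and the spread was also estimated from fewer arrays. The falls in the count mix both losses.

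**Figure D1:**
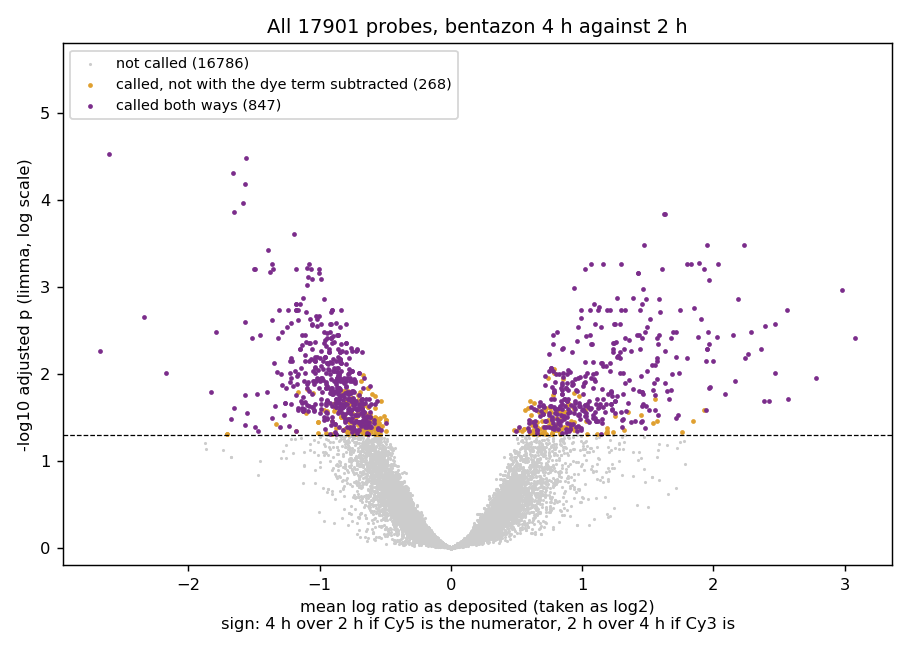
Mean log ratio as deposited of each of the 17901 probes (horizontal axis, taken as log2) against the -log10 of its limma adjusted p (vertical axis, log scale), with the threshold of 0.05 as a dashed line. The 847 probes called with and without the dye term lie on both sides, and the positive side reaches further (3.08) than the negative side (-2.67).

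Of the 811 probes with a name, 38 were called, 16 positive and 22 negative, for 34 genes. That share, 4.69%, is to be read against the 6.23% over all probes. The 8 genes on the positive side that were called with and without the dye term, with the same sign on all arrays, included an iron-storage protein, calcium signalling and 2 transcription factors.

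SFERH-2, a ferritin, which stores iron in a form that does not generate radicals, had values of 0.87, 1.14 and 1.43 on the 3 arrays (replicates 1, 2 and 3, as in all such lists below). The values lay close together and all above 0, with a mean of 1.15 ± 0.28 (SD, n = 3, adjusted p = 0.00746). NAC2, a transcription factor of the NAC family, many of which act in stress and senescence, had 1.00, 0.87 and 1.33 (mean 1.07 ± 0.24, adjusted p = 0.0248). Its other probe was near 0, at -0.03. ENOD40B, named as an early nodulin gene with a short, largely non-coding transcript, had 0.60, 1.07 and 1.44 (mean 1.04 ± 0.42, adjusted p = 0.022), and -0.31 on its other probe, which was not called.

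SCAM-3 encodes a calmodulin, a calcium sensor that binds and switches other proteins. Its called probe had 0.99, 0.71 and 1.18 (mean 0.96 ± 0.24, adjusted p = 0.0157), whereas the other 2 SCAM-3 probes were negative and not called. Glutamate decarboxylase, which makes the stress metabolite gamma-aminobutyrate and in plants is activated by calmodulin, is listed as LOC547724 (GAD). Its 3 probes were all positive and 2 were called: one had 1.08, 0.72 and 0.97 (mean 0.93 ± 0.18, adjusted p = 0.00565), the other 1.06, 0.48 and 1.11 (mean 0.88 ± 0.35, adjusted p = 0.0409). The second lost its call with the dye term subtracted (adjusted p = 0.0512).

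The others in this set were SOYAP1, an aspartic proteinase (mean 0.81 ± 0.13, adjusted p = 0.0369), LOX1.1, a lipoxygenase (0.78 ± 0.12, adjusted p = 0.0036), and DREB1-like, a transcription factor of the family that binds drought-response elements (0.72 ± 0.36, adjusted p = 0.0347). Probes of 1 name did not always go together here. The other 2 SOYAP1 probes were negative without a call, down to -0.33. Another LOX1.1 probe was called on the negative side, with -0.41, -1.29 and -0.72 (mean -0.81 ± 0.45, adjusted p = 0.0225), and the other 3 DREB1-like probes were negative without a call, down to -0.92. With 2 arrays the 8 means stayed between 0.55 and 1.29, and 0 of the 8 calls held without replicate 1 (adjusted p between 0.0793 and 0.453), 0 without replicate 2 (0.0521 to 0.115) and 3 without replicate 3, those of SFERH-2, LOC547724 (GAD) and LOX1.1 (0.0347 to 0.162 over the 8).

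MIPS, the myo-inositol phosphate synthase that opens inositol synthesis from glucose phosphate, had the largest positive mean of the named probes. It had values of 1.06, 2.59 and 1.02 (mean 1.56 ± 0.90, adjusted p = 0.0195), so that replicate 2 stood well above the others. All 4 MIPS probes were positive, between 0.88 and 1.56, and 1 was called. That call was lost with the dye term subtracted (1.25, adjusted p = 0.0505). Without replicate 2 the mean of this probe was 1.04. ASP1 (1.20, 1.41 and 0.31, mean 0.97 ± 0.59, adjusted p = 0.0178) also lost its call in this way (adjusted p = 0.0634), and 4 of its 5 probes were positive.

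**Figure D2:**
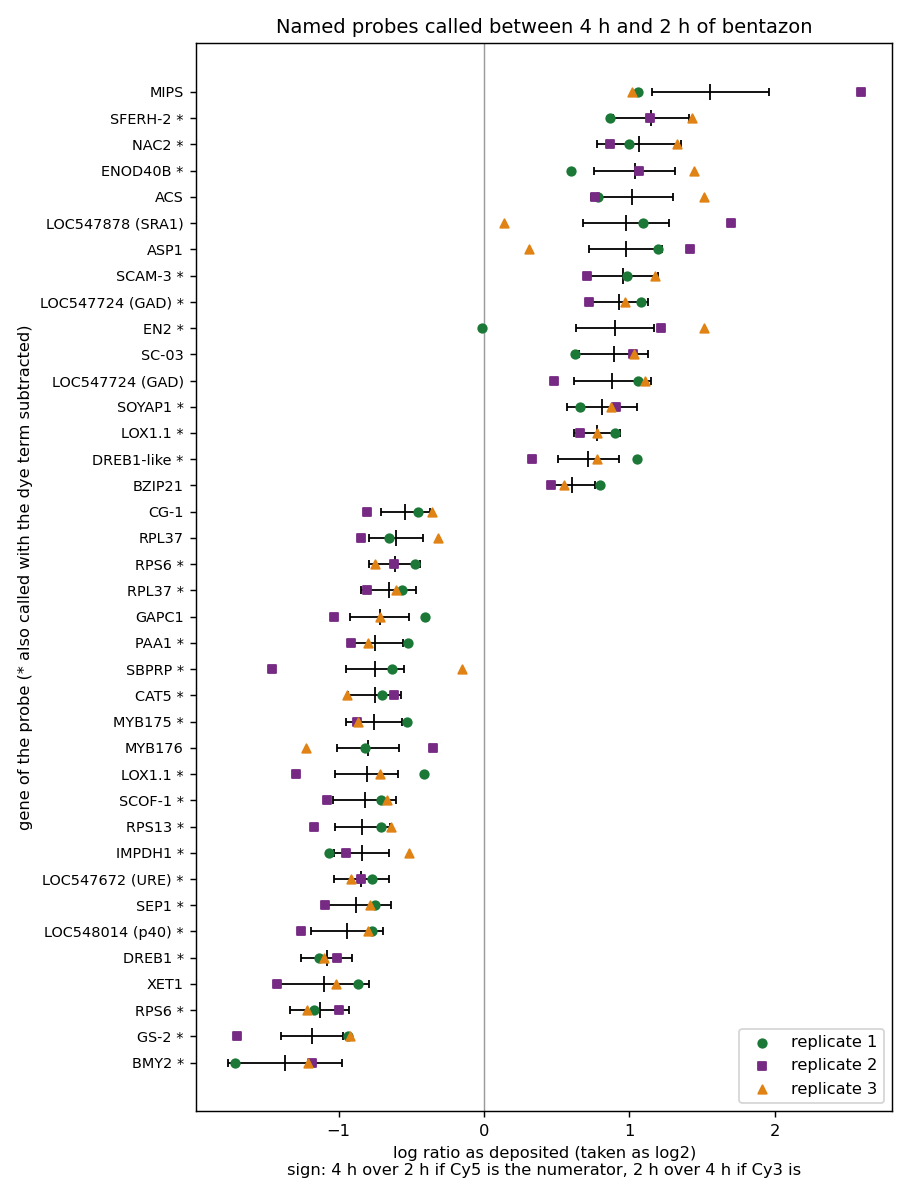
Log ratio as deposited (horizontal axis, taken as log2) of the 38 named probes called between 4 h and 2 h of bentazon, with the 3 arrays as symbols, the mean as a tick and its standard error as a bar. Apart from EN2, with a value of -0.01 on replicate 1, each probe has its 3 arrays on 1 side of 0; MIPS shows replicate 2 at 2.59, away from the other arrays.

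On the negative side 10 genes were named by the same rule, among them enzymes of starch breakdown, nitrogen release and nucleotide synthesis, ribosomal proteins and stress transcription factors. BMY2, a beta-amylase, which releases maltose from starch, had -1.71, -1.18 and -1.21 (mean -1.37 ± 0.30, adjusted p = 0.0319), and its second probe was negative as well at -0.76 without a call. GS-2 had -0.93, -1.70 and -0.92 (mean -1.18 ± 0.44, adjusted p = 0.00159), but its other 2 probes were positive without a call, up to 0.49.

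DREB1, from the same family as DREB1-like, had -1.14, -1.01 and -1.10 on its 1 probe. The arrays differed by little and the mean was -1.08 ± 0.07 (SD, n = 3, adjusted p = 0.000541). It was the only named call that held without each replicate in turn. SCOF-1, a cold-inducible zinc-finger protein, had -0.71, -1.08 and -0.67 (mean -0.82 ± 0.23, adjusted p = 0.0198), with a second probe at 0.07. SEP1, of 1 probe, had -0.75, -1.09 and -0.79 (mean -0.88 ± 0.19, adjusted p = 0.0243).

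Urease, which frees ammonia from urea, is listed as LOC547672 (URE). Its called probe had -0.77, -0.85 and -0.91 (mean -0.84 ± 0.07, adjusted p = 0.00709), and the other 2 probes were positive without a call, up to 0.25. IMPDH1, an IMP dehydrogenase of guanine nucleotide synthesis, had -1.06, -0.95 and -0.51 (mean -0.84 ± 0.29, adjusted p = 0.00721), with 1 of its other probes positive at 0.25. All 4 probes of LOC548014 (p40) were negative, between -0.94 and -0.33, and 1 was called (adjusted p = 0.0204).

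Without replicate 1, 1 of these 10 calls held, that of DREB1 (adjusted p = 0.044, up to 0.291 over the 10). Without replicate 2, 3 held, those of GS-2, RPS6 and DREB1, and without replicate 3, 7 held, those of BMY2, LOC548014 (p40) and SEP1 being lost. The 10 means stayed between -1.46 and -0.67 in these fits.

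Of the 20 gene lists, that for translation had the highest share of calls. Of its 17 probes for histones, ribosomal proteins and elongation factors (6 genes), 5 were called, 29.4% against 6.23% of all probes, all 5 negative, and the list median was -0.12 against -0.02. RPS6, a protein of the small ribosomal subunit whose phosphorylation follows growth signalling, had -1.17, -0.999 and -1.22 on 1 probe (mean -1.13 ± 0.11, adjusted p = 0.00133) and -0.47, -0.62 and -0.75 on the other (mean -0.62 ± 0.14, adjusted p = 0.0315). RPS13, of the same subunit, had -0.71, -1.17 and -0.64 (mean -0.84 ± 0.29, adjusted p = 0.00748). Of 4 probes for RPL37, of the large subunit, 2 were called, at -0.66 and -0.61 (adjusted p = 0.0341 and 0.0462), and the others stood at -0.34 and 0.12.

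The rest of that list lay near 0. The 5 probes of histone H4 had means between -0.12 and 0.26, the 3 of RPL2, another large-subunit protein, between -0.15 and -0.06, and the 2 of EF1BGAMMA4, an elongation factor subunit, were at -0.14 and 0.34. With the dye term subtracted 4 of the 5 calls remained. Without replicate 1, 0 of the list were called, without replicate 2, 1, and without replicate 3, 3.

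Among 79 probes for transcription factors (51 genes), 3 were called positive and 5 negative, 10.1% in all against 6.23% of all probes (2.63% positive and 3.6% negative). Besides those already given, BZIP21 was positive (0.60 ± 0.17, adjusted p = 0.0205) and lost its call with the dye term (adjusted p = 0.0912). MYB175 had -0.53, -0.87 and -0.87 (mean -0.76 ± 0.19, adjusted p = 0.0157), and its other 2 probes were also negative, up to -0.50. MYB176 had -0.82, -0.35 and -1.22 (mean -0.80 ± 0.44, adjusted p = 0.0216), but its second probe stood at 0.85, and the call was lost with the dye term (adjusted p = 0.0682). Without replicate 1, 2 or 3 the list held 1, 2 and 2 calls, all negative.

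Carbohydrate and cell wall genes (29 probes of 14 genes) had 1 positive and 2 negative calls, 10.3% of the list against 6.23% of all probes. XET1, a xyloglucan endotransglycosylase that cuts and rejoins wall polymers, joined MIPS and BMY2, with -0.87, -1.42 and -1.01 (mean -1.10 ± 0.29, adjusted p = 0.0281). Its second probe was negative at -0.80, and its call was lost with the dye term subtracted (-0.92, adjusted p = 0.0596). In the antioxidant list (22 probes of 12 genes) 2 probes were called (9.09%, also against 6.23%): ferritin was the positive call and CAT5, a catalase that removes hydrogen peroxide, the negative one. CAT5 had -0.70, -0.62 and -0.94 (mean -0.75 ± 0.17, adjusted p = 0.0122), and its second probe stood at -0.56. APX1, an ascorbate peroxidase, had 0.12, 1.06 and 0.50 and was not called (adjusted p = 0.144). Without replicate 1, 2 or 3 the adjusted p of XET1 was 0.163, 0.135 and 0.0639, and that of CAT5 was 0.144, 0.109 and 0.0623. The calls of MIPS and SFERH-2 held without replicate 3 (adjusted p = 0.0338 and 0.0459) and not without either of the other replicates.

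Jasmonate and ethylene genes (42 probes of 13 genes) had a list median of 0.23, with 29 of 42 means above 0. Over all 17901 probes the median was -0.02, with 8587 means above 0. Probes of 1 gene may share sequence, so the 29 do not count as separate genes. Their 3 calls (7.14%, against 6.23% of all probes) were the LOX1.1 probes of opposite sign and ACS, placed here by its symbol, with 0.78, 0.77 and 1.51 (mean 1.02 ± 0.43, adjusted p = 0.0259), a call lost with the dye term (adjusted p = 0.0521). The nodulin and haemoglobin list had 1 call in 10 probes, ENOD40B, and a median of -0.24. The kinase list, which as matched took in the calmodulin SCAM-3, had 1 call in 28, that of SCAM-3 and not of a kinase. The cold and drought list had 2 in 43, DREB1 and DREB1-like, and the amino acid and nitrogen list 1 in 28, urease. The called LOC547724 (GAD) probes were outside the amino acid list and SCOF-1 was outside the cold list. The shares below depend on that matching. Against 6.23% of all probes, the shares were 10% for the nodulin list and 3.57% for the kinase list with its calmodulin. They were 4.65% for cold and drought, and 3.57% for amino acids and nitrogen. With 1 or 2 calls a list, they say little about the lists.

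The remaining called probes with a name belonged to no list or to genes with mixed roles. On the positive side EN2 had -0.01, 1.22 and 1.51 (mean 0.90 ± 0.81, adjusted p = 0.0379), SC-03 averaged 0.89 ± 0.23 and LOC547878 (SRA1) 0.98 ± 0.79, with 1.10, 1.70 and 0.14 on the arrays. EN2 was at 1.36 without replicate 1 and 0.60 without replicate 3, and LOC547878 (SRA1) at 0.62 without replicate 2, none of them called (adjusted p between 0.0727 and 0.431). On the negative side PAA1 averaged -0.75 ± 0.20. SBPRP, a proline-rich protein, had -0.63, -1.46 and -0.15 (mean -0.75 ± 0.66), and without replicate 2 its mean was -0.39 and not called (adjusted p = 0.53). GAPC1, a cytosolic glyceraldehyde-3-phosphate dehydrogenase of glycolysis, averaged -0.72 ± 0.31, and CG-1 averaged -0.54 ± 0.24, with 7 of its 8 probes negative. The calls of SC-03, LOC547878 (SRA1), GAPC1 and CG-1 were lost with the dye term subtracted (adjusted p between 0.0504 and 0.0913).

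**Figure D3:**
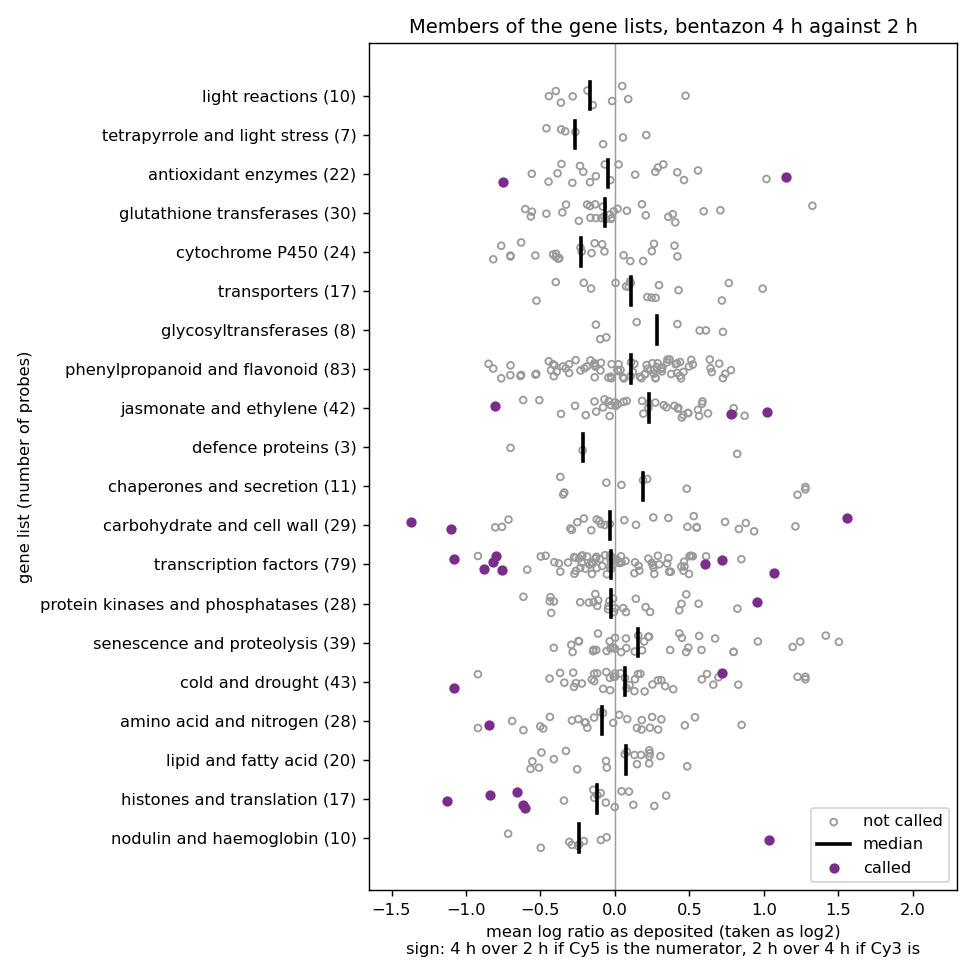
Mean log ratio as deposited (horizontal axis, taken as log2) of every tested probe of the 20 gene lists, 1 row a list with its number of probes, filled where called and with the median as a bar. Called probes of the histone and translation list all lie on the negative side, while 11 lists have no filled point.

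No probe was called in 11 of the 20 lists by limma at this threshold, among them the lists for the light reactions and for detoxification. These lists held between 3 and 83 probes, and at the 6.23% of all probes the shorter ones would hold less than 1 call, so that 0 says little of them. Single probes were called under other settings: 1 each in the glutathione transferase and transporter lists with scaled arrays, 1 each in the senescence and lipid lists with the dye term subtracted, and 1 each in the transporter and senescence lists without replicate 3. The 10 light reaction probes had a median of -0.17 and lay between -0.44 and 0.47. CAB3, a chlorophyll-binding antenna protein, was negative on 5 of 6 probes, and PSAD, a photosystem I subunit, reached 0.24, 0.58 and 0.60 (mean 0.47 ± 0.20, adjusted p = 0.159). The 7 tetrapyrrole and light stress probes had a median of -0.27, with ELIP, an early light-induced protein, at -0.70, -0.58 and -0.10 (adjusted p = 0.417).

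Of 30 glutathione transferase probes, 20 were below 0, against 9314 of all 17901 probes. The largest mean was that of GSTU9, with 1.88 and 0.77 on replicates 2 and 3 and no value on replicate 1 (adjusted p = 0.051). The 24 cytochrome P450 probes had a median of -0.23, between -0.82 and 0.42. The 7 probes of IFS2, the P450 that makes the isoflavone skeleton, were all negative, between -0.82 and -0.42, and none was called (the smallest adjusted p was 0.36). The 8 glycosyltransferase probes had a median of 0.28, and all 3 of LOC732565 (SGT3) were positive, between 0.57 and 0.73, also without a call.

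The phenylpropanoid and flavonoid list was the longest, with 83 probes of 22 genes and a median of 0.11. Of 9 probes for F3H, flavanone 3-hydroxylase, 8 were positive, the one with the smallest p at 1.07, 0.84 and 0.27 (mean 0.73 ± 0.41, adjusted p = 0.0932). Probes of such a gene may share sequence and do not count as separate genes.

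Differences between replicates were as large as the means for several of these genes. The 3 probes of VSPA, a vegetative storage protein that jasmonate induces in soybean leaves, averaged between 1.19 and 1.504, but replicate 2 was at 2.93 to 3.71 while the other arrays were at 0.27 to 0.63, and none was called (smallest adjusted p = 0.318). LOXB1 likewise had 0.42, 2.47 and -0.50. PM37, a DnaJ-type chaperone, had 0.22, 1.84 and 1.79 on the probe with the smallest p (mean 1.28 ± 0.92, adjusted p = 0.0628). For PM37, 3 of 5 probes had this shape, with replicate 1 apart from the other arrays, and the remaining 2 had means of -0.34 and -0.06.

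Genes named for bentazon in earlier results of these data were looked at in the same way. PDR12, a PDR-type ABC transporter, a class of pumps that export varied small molecules, had -0.11, 0.58 and 1.83 and was not called (mean 0.77 ± 0.98, adjusted p = 0.369). Its difference between bentazon and water was of similar size at both times, -5.24 ± 0.59 at 4 h and -5.86 ± 0.59 at 2 h (bentazon minus water if Cy5 is the numerator, standard errors, through the loop). The replicates of GSTL3, a glutathione transferase of the lambda class, had -0.18, 1.23 and 0.16 (adjusted p = 0.348). CGS2, a cystathionine gamma-synthase of methionine synthesis, had 0.42, 0.97 and 1.16 (mean 0.85 ± 0.38, adjusted p = 0.0593). SARK (0.43), PK3 (0.82), COPZ1 (0.04), VPE2 (-0.24) and PRX2B (0.27) were not called either (adjusted p between 0.14 and 0.972). For genes with several probes, these values are of the probe with the smallest p. Their other probes, none of them called, were at -0.19 for GSTL3, -0.41 and 0.07 for SARK, and -0.04 and -0.01 for PK3. Those of CGS2 ran between -0.50 and 0.29, and that of PRX2B was at 0.14. Thus of the 10 genes named earlier only XET1 and MIPS were called here.

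The series had 12 kinds of array with 3 arrays each, which places the bentazon comparison of 4 h with 2 h among the others on an equal footing. By number of calls it ranked 7th of 12, with 1115. The atrazine arrays of 8 h against 1 h had the most, 5231 (28.7%), and the water arrays of 2 h against 1 h had 0 (717 at an unadjusted p under 0.05). Bentazon against atrazine gave 1794 calls on the arrays at 4 h (9.81%) and 1572 at 2 h (8.69%), so that either herbicide contrast held more calls than the time step. These counts share RNA between neighbouring kinds of array, and the differences between counts were not tested.

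**Figure D4:**
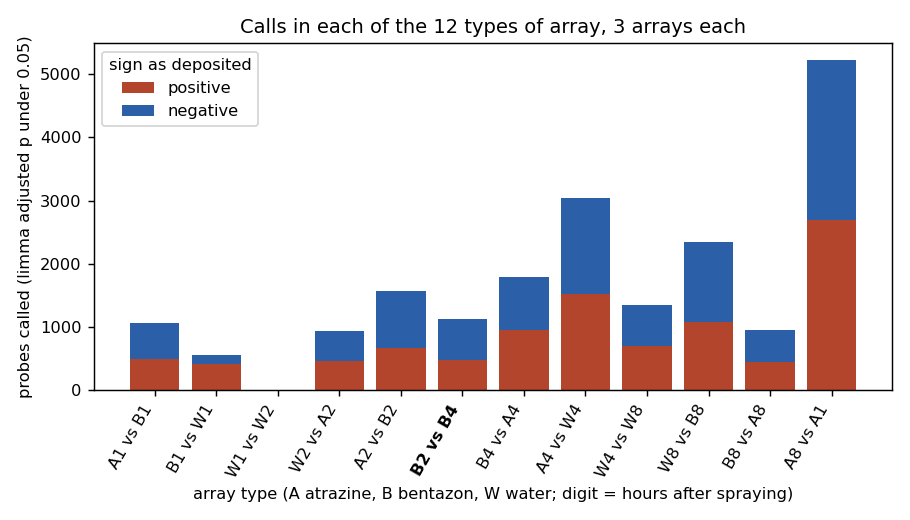
Number of probes called in each of the 12 kinds of array (vertical axis), split by sign as deposited, in the order of the loop (horizontal axis), with the bentazon arrays of 4 h and 2 h in bold. They hold 471 positive and 644 negative calls and rank 7th of the 12.

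Whether the step between 4 h and 2 h under bentazon differed from that under atrazine or in water was tested along the loop, with the dye term subtracted. The direct bentazon arrays cancel from these differences except through the dye term, by which 16.7% of their mean enters the difference from atrazine and 33.3% that from water. Without the dye term the differences rest on the other arrays alone. They then carry each probe's dye preference, 2 times for atrazine and 4 times for water. In this form, unlike in the counts below, that preference is left in, and 1 and 65 probes were called. Of 17062 probes with at least 2 values in each kind of array, 2 were called for bentazon minus atrazine (0.0117%, 1399 at an unadjusted p under 0.05) and 1 for bentazon minus water (0.00586%, 1559 unadjusted), by limma. The steps under atrazine and in water were less precise than that under bentazon, with median standard errors of 0.335 and 0.383 against 0.214, because no array compared 4 h with 2 h of atrazine or of water. They gave 2 and 0 calls of their own (0.0117% and 0%). The 2 under atrazine were Gm03194cDNA18kA (-2.21 ± 0.39) and Gm02574cDNA18kA (-2.03 ± 0.36, standard errors, adjusted p = 0.0438 for each). With the dye term subtracted these stood at -1.01 ± 0.25 and -0.91 ± 0.26 under bentazon. Both were also called in the bentazon step (adjusted p = 0.00987 and 0.0338), the second without a value on replicate 2. The low counts therefore do not show that the treatments shared a time course.

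The named genes called in the bentazon step had these values beside it, none of the 38 probes being called in either difference between treatments (adjusted p between 0.194 and 0.996 for atrazine, and between 0.241 and 0.982 for water). The path to the atrazine and water values runs over the bentazon arrays, so the values of 1 gene are not independent. Some genes had a bentazon value with little beside it. SCAM-3 stood at 0.95 ± 0.23 under bentazon, 0.09 ± 0.36 under atrazine and -0.06 ± 0.42 in water (standard errors, dye term subtracted). LOC547724 (GAD) stood at 1.01 ± 0.19 under bentazon, -0.03 ± 0.30 under atrazine and 0.09 ± 0.35 in water, and its difference from atrazine was 1.04 ± 0.26 (adjusted p = 0.194). Urease, LOC547672 (URE), stood at -0.89 ± 0.18 under bentazon, 0.04 ± 0.28 under atrazine and 0.04 ± 0.32 in water, with a difference from atrazine of -0.93 ± 0.24 (adjusted p = 0.211).

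Other probes had values of 1 sign in all treatments. The LOX1.1 probe with the positive mean stood at 0.56 ± 0.15 under bentazon, 0.67 ± 0.24 under atrazine and 0.74 ± 0.27 in water. These values depend on the probe's dye term (0.22, adjusted p = 0.0136): its differences from atrazine and from water were -0.11 and -0.18 with it subtracted, and -0.54 and -1.05 without, none of them called. The other called LOX1.1 probe was at -0.74 ± 0.21 under bentazon, 0.02 ± 0.32 under atrazine and 0.22 ± 0.37 in water. The RPS6 probe with the larger mean stood at -0.97 ± 0.19 under bentazon, -0.69 ± 0.30 under atrazine and -0.57 ± 0.34 in water. For BMY2 and SEP1 the herbicides lay on 1 side and water on the other: BMY2 was at -1.29 ± 0.38 under bentazon, -1.02 ± 0.59 under atrazine and 0.70 ± 0.67 in water, and SEP1 at -0.97 ± 0.23 under bentazon, -0.90 ± 0.36 under atrazine and 0.66 ± 0.41 in water. Their differences from water, -1.99 ± 0.64 and -1.62 ± 0.39, were not called (adjusted p = 0.355 and 0.241).

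**Figure D5:**
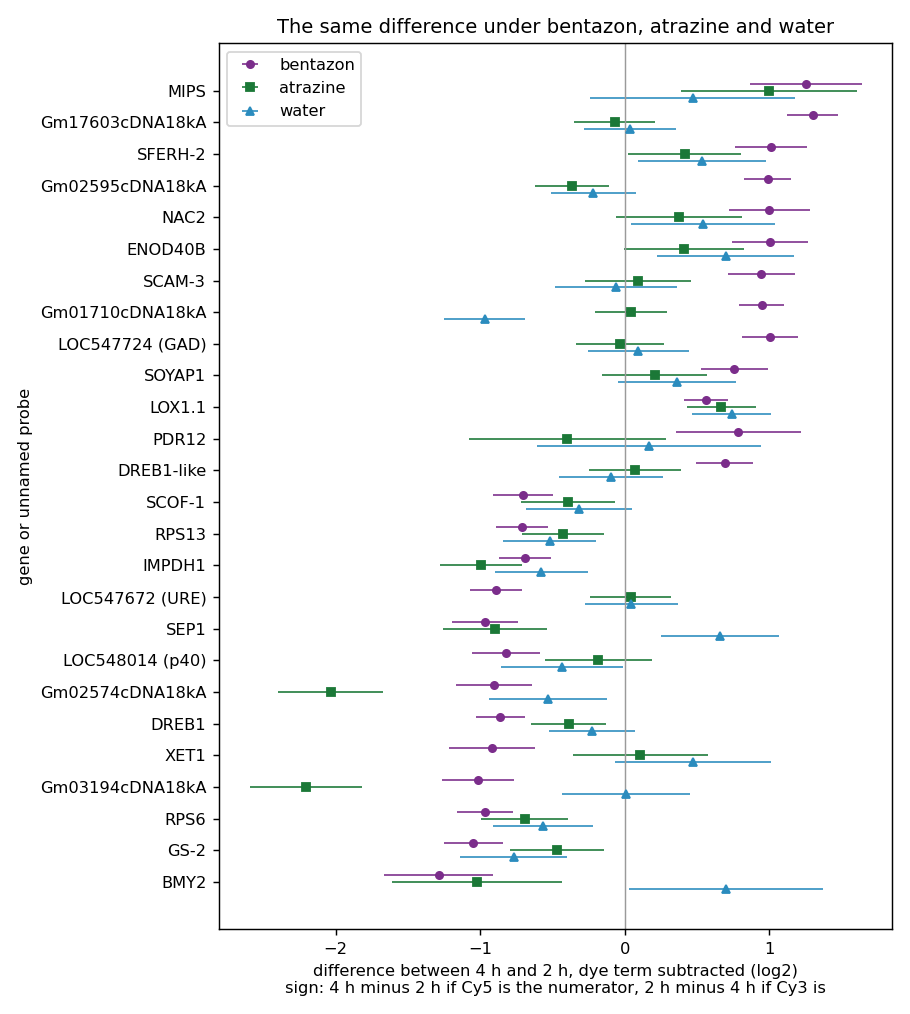
Difference between 4 h and 2 h with the dye term subtracted (horizontal axis, log2) under bentazon, atrazine and water, with standard errors as bars. Values are 4 h minus 2 h if Cy5 is the numerator. Shown are leading named genes and the unnamed probes called in a difference between treatments or in the atrazine step. The unnamed probes with the largest bentazon means are not shown. SCAM-3, LOC547724 (GAD) and LOC547672 (URE) have the bentazon point away from 0 and the other points near it, and Gm01710cDNA18kA has bentazon at 0.95 and water at -0.97.

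Bentazon was also set against water at each time, signed as bentazon minus water if Cy5 is the numerator. The change of this distance between the times is the bentazon step less the step in water, not the bentazon step itself. EN2, for example, had a bentazon step of 0.90 but stood at -0.72 against water at 4 h and -0.77 at 2 h. The share of all probes called for bentazon minus water was 13.4% at 4 h (6.41% positive and 7% negative) and 7.59% at 2 h (2.85% positive and 4.74% negative). Of the 38 named probes called in the bentazon step, 8 were called against water at 4 h and 8 at 2 h, 2 of them at both times, 6 at 4 h only and 6 at 2 h only. The 2 called at both times were SCAM-3, with -1.39 at 4 h (adjusted p = 0.00285) against -2.40 at 2 h (4.84e-06), and ENOD40B, with -1.597 at 4 h (0.00257) against -1.90 at 2 h (0.000517). Those called only at 4 h were XET1, urease, CAT5 and SEP1 on the negative side and DREB1-like and MIPS on the positive side. XET1 had -2.15 at 4 h (adjusted p = 0.000412) against -0.76 at 2 h (0.354), urease -1.43 at 4 h (0.00013) against -0.50 at 2 h (0.245), and CAT5 -1.40 at 4 h (0.000125) against -0.27 at 2 h (0.624). SEP1 had -1.36 at 4 h (adjusted p = 0.00295) against 0.26 at 2 h (0.712), DREB1-like 1.23 at 4 h (0.00235) against 0.44 at 2 h (0.388), and MIPS 2.35 at 4 h (0.00263) against 1.57 at 2 h (0.0973). The probes called only at 2 h belonged to SFERH-2, NAC2, LOC547724 (GAD), DREB1 and LOX1.1. SFERH-2 had -0.66 at 4 h (adjusted p = 0.203) against -1.14 at 2 h (0.0308), and NAC2 -0.95 at 4 h (0.092) against -1.41 at 2 h (0.0165). Of the LOC547724 (GAD) probes, one had 0.04 at 4 h (adjusted p = 0.945) against -0.87 at 2 h (0.0334) and the other -0.37 at 4 h (0.542) against -1.08 at 2 h (0.0487). DREB1 had 0.21 at 4 h (adjusted p = 0.605) against 0.85 at 2 h (0.0164), and the LOX1.1 probe with the negative mean -0.08 at 4 h (0.892) against 0.88 at 2 h (0.049). A call at 1 time only does not show a difference between times: in the test of that difference none of these 14 probes reached the threshold (adjusted p between 0.241 and 0.873).

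Only 53 of the 1115 called probes carry exactly 1 gene here (21 positive and 32 negative), and the largest means on each side belong to probes without one. Gm18259cDNA18kA had 2.50, 3.17 and 3.56 (mean 3.08 ± 0.54, adjusted p = 0.00384) and Gm16793cDNA18kA 1.92, 3.44 and 3.58 (mean 2.98 ± 0.92, adjusted p = 0.00109). On the negative side Gm08405cDNA18kA had -2.51, -2.96 and -2.54 (mean -2.67 ± 0.26, adjusted p = 0.00541). Gm09487cDNA18kA had -2.53, -2.67 and -2.61, with a mean of -2.60 ± 0.07, and the smallest adjusted p of all probes, 2.94e-05. Its call and that of Gm16793cDNA18kA held without each replicate in turn, while those of Gm18259cDNA18kA and Gm08405cDNA18kA were lost without replicate 1 (adjusted p = 0.0847 and 0.112).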

How the data were processed

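The authors deposited a single log ratio for each probe on each array, read here as log2. The log base, the numerator channel and any background correction or scaling by the authors were not given in the sources used here. With natural logs the tests would stand and the sizes would all be understated by the same factor. Per the labels' protocols, Trizol-extracted RNA was labelled indirectly through aminoallyl-dUTP. The labels also mention technical repeats with dye swaps, while each comparison appears in 1 orientation per replicate here. If repeats had been averaged, the dye term would not hold.

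A mean for each of the 12 kinds of array was fitted to all 36 arrays with limma 3.58.1 in R 4.3.3, and the mean of the bentazon arrays was tested against 0 with Benjamini-Hochberg adjustment over 17901 probes (adjusted p of 0.05). Steps under atrazine and in water, and differences from water, are sums of these means along the loop, less the mean of all 12 for each array passed (17062 probes). Arrays were treated as independent although neighbours share RNA extracts. The script was tested on simulated independent arrays, only for the bentazon comparison with the dye term subtracted. That test did not cover shared RNA or the differences between treatments. Plots used Python 3.11.15 and matplotlib 3.10.9.

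Replicate numbers were checked for pairing. Deviations of the bentazon arrays and those without shared RNA correlated between -0.26 and 0.21 (27 pairs, median 0.02, 6 over 0.1). The numbers were not used as pairs in the main fit. Values of both signs do not show that the numbers carry no pairing. Arrays that share an RNA with the bentazon arrays correlated with them between -0.40 and 0.04 within a number (6 pairs, median -0.20). The standard errors of sums along the loop leave out this dependence, and solving each replicate's loop alone keeps it. No batch, slide or scan date was given in the sources used here.

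The named genes were, on each sign, the 10 with the largest mean called with and without the dye term and with 1 sign on 3 arrays, filled by the smallest p, then up to 4 members per list by smallest p, 10 genes named in earlier results, and at most 2 unnamed probes per sign. The remaining called probes with a name were added after their values were seen. So were the probes that differed between treatments or were called in the atrazine step. Members and lists were chosen with earlier results of these data known. Gene lists were matched by symbol or synonym, since the gene table (Glycine_max_v4.0 assembly, 523 of 527 genes matched by ID) holds no descriptions, and symbols that matched a list by their letters alone were removed after matching. Alternatives covered scaling, centring, array weights, a robust prior, missing values, the replicate block and the dye term. They also covered the 3 arrays alone, each loop alone, a minimum size of 1 and leaving out each replicate from all kinds of array.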

Additional observations from a re-analysis of the deposited data

Results flagged for a closer look

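Between 4 h and 2 h, 3 unnamed probes behaved differently under bentazon and under another treatment by the limma test of that difference. All values are 4 h minus 2 h if Cy5 is the numerator. The direct bentazon arrays enter these tests only through the dye term. Without that term the tests keep each probe's dye preference. Bentazon minus atrazine was then 1.65 (adjusted p = 0.00803) for Gm17603cDNA18kA and 1.20 (adjusted p = 0.066, not called) for Gm02595cDNA18kA. Bentazon minus water was 1.94 (adjusted p = 0.0131) for Gm01710cDNA18kA.

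Gm17603cDNA18kA had 1.56, 0.74 and 1.18 on the direct bentazon arrays and 1.30 ± 0.18 with the dye term subtracted, against -0.07 ± 0.28 under atrazine. Bentazon minus atrazine was 1.37 ± 0.24 (adjusted p = 0.0206). Without replicate 1, 2 or 3 it was 1.56, 1.53 and 1.02, none of them called (adjusted p = 0.147, 0.302 and 0.388), and the adjusted p over all alternatives ran between 0.0034 and 0.97.

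Gm02595cDNA18kA had 1.17, 0.98 and 1.06 on the direct arrays and 0.99 ± 0.16 with the dye term subtracted, against -0.37 ± 0.26 under atrazine. Bentazon minus atrazine was 1.36 ± 0.22 (adjusted p = 0.0129). It was 1.49, 1.20 and 1.37 without replicate 1, 2 or 3, again without a call (adjusted p = 0.0846, 0.302 and 0.356, between 0.00402 and 0.97 over all alternatives).

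Gm01710cDNA18kA had 1.16, 1.13 and 0.54 on the direct arrays and 0.95 ± 0.16 with the dye term subtracted, against -0.97 ± 0.28 in water. Bentazon minus water was 1.92 ± 0.27 (adjusted p = 0.000756). It stayed called without replicate 2 (1.99, adjusted p = 0.0241) and not without replicate 1 (1.87, adjusted p = 0.437) or 3 (1.88, adjusted p = 0.187), with adjusted p between 1.87e-05 and 0.437 over all alternatives.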

How the results depend on the processing

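The count of 1115 stayed within 1.5 times under 8 alternatives: 1339 with scaled arrays, 1084 with centred arrays, 1078 with a robust prior, 1155 and 1107 with complete values on 3 and on 36 arrays, 1038 with the dye term subtracted, 1014 with the replicate block, and 849 on the 3 arrays alone (52.5% positive, against 42.2%). It was 2294 with array weights, 557 when every loop was solved alone (53.7% positive), 393 with a minimum size of 1 (60.1% positive) and 72 to 676 without 1 replicate. Bentazon minus atrazine (2 calls) gave 1 with scaled arrays, 124 with array weights, 1 without the dye term, 0 with each loop alone (724 unadjusted) and 0 to 2 without 1 replicate, of which 0 were those called on all arrays. Bentazon minus water (1 call) gave 2, 126, 65 and 9 in these settings and 0 to 8 without 1 replicate. The replicate block gave 2 and 1 calls for these differences. Of the 47 called probes given by name or ID, 42 of 46 lost the call without replicate 1, 35 of 47 without replicate 2, 24 of 46 without replicate 3, 26 of 45 with each loop alone, 14 on the 3 arrays alone, 12 with the dye term, 3 with the replicate block and at most 2 in the other settings, and 0 changed sign. Signs turned for probes that were not called, whose means without 1 replicate ran between -0.00585 and 0.696 (GSTL3), -0.322 and 0.623 (COPZ1), -0.589 and 0.0974 (VPE2), -0.135 and 0.634 (PRX2B), -0.0279 and 0.358 (GSA1), -0.0577 and 0.524 (COPZ2), and -0.0378 and 1.44 (LOXB1). IF7GT turned with array weights (0.0111), with the dye term (0.122) and with each loop alone (0.122). Fits without 1 replicate held 2 bentazon arrays and 2 arrays of each other kind. The cause of these changes was not tested. No intensities were used, so signal over background could not be weighed.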
